A study of Rattus norvegicus with 11 samples.

Results

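The platelet-derived growth factor (PDGF) family was examined in bladder tissues of rats with partial bladder outlet obstruction (PBOO) and of normal rats. Its members were taken by symbol, namely the genes of the ligand chains, Pdgfa, Pdgfb, Pdgfc and Pdgfd, and of the receptors, Pdgfra and Pdgfrb. These are 6 of the 18507 genes in the expression table, and each was above 0 in all 11 samples. All animals were Sprague-Dawley rats, which the study's methods describe as females. In the PBOO groups a suture was tied around the bladder neck and urethra, whereas the control rats received only an abdominal incision, and the labels call these controls normal. RNA of bladder tissue was sequenced at week 4 (3 PBOO and 3 normal samples) and at week 5 (2 PBOO and 3 normal samples). The paper states that a further PBOO week 5 sample was dropped for quality control when libraries were made. The normal week 5 samples are described in their records as adult samples, whereas the PBOO week 5 samples carry names of another form. All week 4 samples carry a further naming scheme. The naming thus differs between PBOO and normal samples within week 5 as well as between weeks. The records do not say whether those adult samples came from rats with the incision, nor which part of the bladder wall was taken, and the week 5 differences are read under both limits.

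PDGF ligands are dimers of disulfide-linked chains that bind and pair receptor tyrosine kinases on the cell surface. PDGF-A and PDGF-B are cut to their active form inside the cell by convertases, whereas PDGF-C and PDGF-D are secreted in a latent form and need a protease outside the cell. In muscular organs the α receptor is typical of fibroblasts and interstitial cells and the β receptor of pericytes and vascular muscle, and in the bladder the α receptor is a common marker of interstitial cells. Because whole tissue was sequenced, fewer cells of a type and less RNA per cell cannot be told apart.

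Windows at the gene starts of the 3 members with the largest falls in the fitted level at week 5 are shown. They were chosen because these members lay low together in the PBOO week 5 samples. Pdgfd averaged under 0.5 FPKM there and was tested only through its level in normal samples, so it had to differ. Its fall is therefore no evidence of a trait shared with the other members. Each window covers 250 bases before and 50 bases after the start of the gene in RefSeq (GRCr8), where 5 of the 6 members were matched by symbol (Pdgfrb was not). In the Pdgfc window the 50 bases after the start open with ATG and run on without a stop codon. That start may be the start codon, and the bases before it may be untranslated sequence rather than promoter. Pdgfc lies at chr2:168614918-168615217 (+ strand), Pdgfd at chr8:11773258-11773557 (+ strand) and Pdgfra at chr14:33408467-33408766 (− strand). Capitals mark the motif matches described after the sequences.
Pdgfc: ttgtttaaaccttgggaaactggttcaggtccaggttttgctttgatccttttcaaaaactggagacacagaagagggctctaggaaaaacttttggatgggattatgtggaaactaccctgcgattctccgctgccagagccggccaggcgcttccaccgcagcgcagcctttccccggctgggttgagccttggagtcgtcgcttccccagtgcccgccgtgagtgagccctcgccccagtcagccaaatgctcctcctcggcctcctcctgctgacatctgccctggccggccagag
Pdgfd: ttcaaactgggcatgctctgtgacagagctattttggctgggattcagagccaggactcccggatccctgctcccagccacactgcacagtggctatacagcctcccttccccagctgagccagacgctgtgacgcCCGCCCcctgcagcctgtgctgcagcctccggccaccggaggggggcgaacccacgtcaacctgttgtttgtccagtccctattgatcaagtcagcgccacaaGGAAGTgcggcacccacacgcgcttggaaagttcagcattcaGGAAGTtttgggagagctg
Pdgfra: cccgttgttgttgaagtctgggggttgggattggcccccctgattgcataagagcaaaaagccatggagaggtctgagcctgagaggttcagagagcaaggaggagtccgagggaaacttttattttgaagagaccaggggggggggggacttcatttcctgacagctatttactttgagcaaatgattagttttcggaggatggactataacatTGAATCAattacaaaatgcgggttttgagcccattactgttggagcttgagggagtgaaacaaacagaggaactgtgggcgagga
The windows were searched on both strands for the GC box GGGCGG, the TATA element TATAAA, the AP-1-like pattern TGANTCA (N is any base), the CArG box and the ETS core GGAAGT. The Pdgfd window held 1 GC box, a motif found in 33.1% of 33469 rat promoters of the same length, and 2 ETS cores, found in 22.6%. The Pdgfra window held 1 match of the AP-1-like pattern, TGAATCA, whose middle base is not the G or C of the AP-1 consensus. With any middle base counted, 7.33% of promoters contain the pattern. The Pdgfc window held none of the 5 motifs, and none of the windows held the TATA element (14.2% of promoters) or the CArG box (1.64%). Marked matches did not overlap each other. The G and C content was 58% for Pdgfc, 60% for Pdgfd and 48% for Pdgfra, beside a median of 51.7% over all promoters. The 3 windows therefore had no searched motif in common, which for Pdgfc may not describe its promoter.

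The table gives expression as FPKM, that is, sequenced fragments scaled by the exon length of the gene and by the fragments mapped in the sample, so levels can be compared between genes, but it holds no read counts, and how deeply each library was sequenced is unknown. FPKM values summed to between 424961 and 564343 per sample. In the week 4 columns 4871 genes were listed at 0 in every sample, compared with 403 in the week 5 columns, so the weeks were compared only through their own controls. The study calls its replicates biological, and no record names the rat behind each sample. Libraries that stood apart in cell type markers bear on the PDGF genes. Normal week 4 replicate 1 had a summed level of 9 fibroblast and interstitial cell markers of 745 FPKM, compared with 3050 and 3060 FPKM in the other normal week 4 samples and 2850 to 2980 FPKM in the PBOO samples, and its 8 leukocyte markers summed to 56.2 FPKM compared with 334 and 386 FPKM. Both PBOO week 5 samples, labelled as bladder tissue, had 8 smooth muscle markers summing to 1850 and 992 FPKM, compared with 24700 to 29000 FPKM in normal samples. Their 8 urothelial markers summed to 6380 and 7070 FPKM (6040 to 7380 FPKM in normal samples). That sum hides opposite moves, since 2 urothelial markers lay above and 4 below all normal week 5 values, beside 35.3% and 25.0% of all genes. No smooth muscle marker was at 0 in any sample, and of the fibroblast and urothelial markers, Clec3b and Krt7 were listed at 0 in every week 4 sample.

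**Figure D1:**
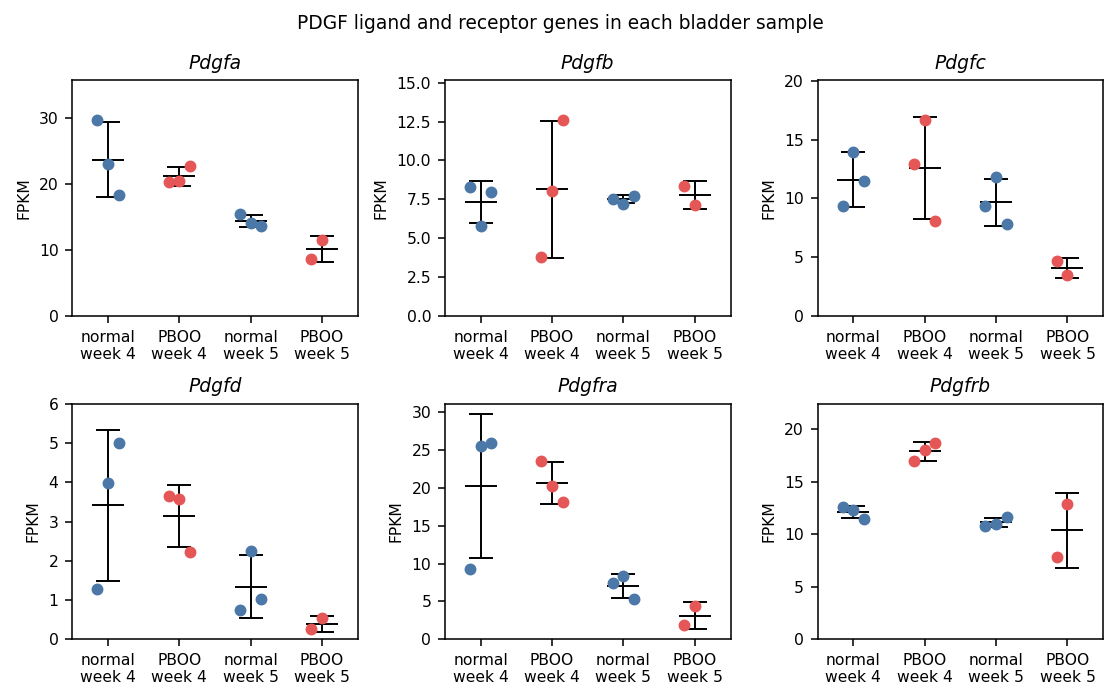
FPKM (vertical axis, starting at 0) of the 6 PDGF genes in each sample, with blue points for normal and red points for PBOO samples and black bars for the mean and SD of each group. Pdgfrb at week 4 was higher in all 3 PBOO samples (17.0 to 18.7 FPKM) than in the normal samples (11.5 to 12.6 FPKM), as were 6.63% of all genes. Pdgfa, Pdgfc, Pdgfd and Pdgfra at week 5 were lower in both PBOO samples than in every normal sample, as were 25.0% of all genes. Pdgfd was tested only through its normal level and had to differ.

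To ask whether obstruction went with a different level of PDGF transcripts, PBOO and normal samples were compared within each week by limma on log2(FPKM + 0.1), with Benjamini-Hochberg adjustment over all genes. A gene passed the test at an adjusted p under 0.05, and fold changes are on that log2 scale, which understates changes of low genes. At week 4, none of the 6 members passed, beside 0.336% of 11320 genes that passed as higher and 0.177% as lower in PBOO bladder tissues. By the unadjusted p under 0.05, 1 member (Pdgfrb) was higher and none was lower, beside 5.76% and 26.2% of all genes. At week 5, 1 member (Pdgfc) passed as lower and none as higher, beside 14.5% and 15.5% of 13685 genes. By the unadjusted p, 4 members (Pdgfa, Pdgfc, Pdgfd and Pdgfra) were lower and none was higher, beside 18.8% and 24.6%. Pdgfd averaged under 0.5 FPKM in the PBOO week 5 samples and reached the filter on low values only through the normal samples, so it had to differ, and 3 members were lower by this rule without it. Leaving out 1 library moved the week 5 count of members passing to 0 without normal replicate 1 and to 4 without PBOO replicate 2.

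The members' groups were also compared by whether their values overlapped. At week 4, the PBOO values of 1 member (Pdgfrb) lay above all normal values and those of none lay below, beside 6.63% and 34.9% of all genes. At week 5, the PBOO values of 4 members lay below all normal values and those of none lay above, beside 25.0% and 35.3% of all genes, with Pdgfd among the 4. The median log2 fold change of the members was 0.06 at week 4 (all genes -0.25) and -0.86 at week 5 (all genes 0.12). The week 5 median includes Pdgfd, which had to differ. All 6 members lay above the median of all genes at week 4, and none did at week 5.

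**Figure D2:**
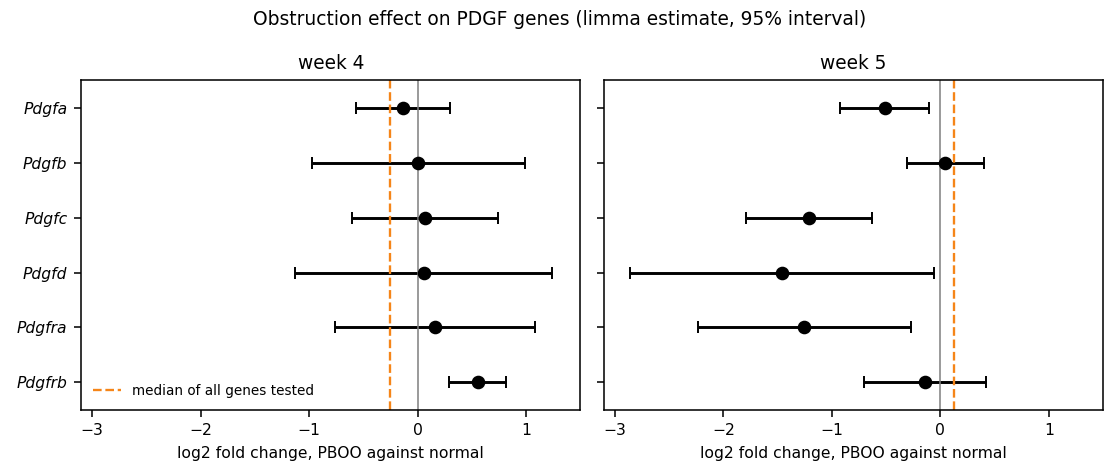
Log2 fold change of PBOO against normal samples (horizontal axis) for each PDGF gene, with points for the limma estimate, bars for its 95% interval and a dashed line for the median of all genes tested. Only the Pdgfrb interval lies off 0 at week 4 (0.29 to 0.82). At week 5, 4 intervals lie below 0, beside 18.8% of all genes that were lower by the unadjusted p under 0.05 of limma. Pdgfd is among the 4 and had to differ.

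Pdgfa, which encodes the chain of the α receptor ligand PDGF-AA, was the most abundant ligand gene in all 11 samples. Its level at week 4 was 29.8, 23.0 and 18.4 FPKM in normal samples and 20.2, 20.5 and 22.8 FPKM in PBOO samples. The groups overlapped, and the highest value was that of normal replicate 1, the library with few fibroblast markers. The log2 fold change was -0.14 (SE 0.18; adjusted p = 0.605), and its sign turned with scaling (0.11 with median-ratio scaling) and without normal replicate 1 (0.041). At week 5, Pdgfa was at 15.4, 14.1 and 13.6 FPKM in normal samples and at 8.70 and 11.5 FPKM in PBOO samples. Both PBOO samples were lower than every normal sample, and the log2 fold change was -0.51 (SE 0.16; 95% interval -0.92 to -0.10), with an unadjusted p of 0.0224 and an adjusted p of 0.0660. This 1.43-fold lower level did not pass the test, and the estimate rested on single PBOO libraries, at -0.714 (adjusted p = 0.0196) without replicate 2 and -0.312 (adjusted p = 0.112) without replicate 1, each from 1 remaining PBOO sample.

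Pdgfb encodes the chain of PDGF-BB, which endothelial cells and platelets release and which binds both receptors. It stood at 8.26, 5.79 and 7.98 FPKM in normal and at 3.78, 8.01 and 12.6 FPKM in PBOO samples of week 4. The PBOO samples thus held both the lowest and the highest Pdgfb level of that week, and the log2 fold change was 0.00 (SE 0.42; 95% interval -0.98 to 0.99; adjusted p = 0.995). At week 5, levels were 7.51, 7.23 and 7.74 FPKM in normal and 8.39 and 7.14 FPKM in PBOO samples. The groups overlapped, with a log2 fold change of 0.05 (SE 0.14; 95% interval -0.31 to 0.40; adjusted p = 0.826) whose sign turned with median-ratio scaling (-0.06). The week 5 interval leaves room for changes of up to 1.24-fold lower, and for larger ones on the higher side, up to a log2 fold change of 0.40. Summed levels of 8 endothelial markers were 78.6 and 106 FPKM in PBOO week 5 samples and 46.9 to 87.5 FPKM in normal samples. Those of 6 platelet markers, not all of them detected, were 12.7 and 26.4 FPKM in PBOO and 2.88 to 16.8 FPKM in normal samples. Both sums overlapped between the groups.

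Pdgfc, the gene of a latent ligand that acts mainly through the α receptor, gave the clearest difference at week 5. Its levels at week 4 were 9.33, 14.0 and 11.5 FPKM in normal and 13.0, 16.7 and 8.04 FPKM in PBOO samples, and these ranges overlapped (log2 fold change 0.07, SE 0.28, adjusted p = 0.869). At week 5, Pdgfc was at 9.32, 11.8 and 7.82 FPKM in normal samples and at 4.70 and 3.5 FPKM in PBOO samples. Both PBOO samples lay below the lowest normal sample, and means were 9.66 ± 2.02 FPKM (SD, n = 3) and 4.10 ± 0.853 FPKM (SD, n = 2). Pdgfc was 2.31-fold lower in PBOO bladder tissues at week 5 (95% interval 1.55 to 3.47), with a log2 fold change of -1.21 (SE 0.23; adjusted p = 0.0151). The call held in 13 of 14 alternative settings and was lost without normal week 5 replicate 1 (adjusted p = 0.0636).

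Pdgfd encodes the other latent ligand, which binds the β receptor, and was the lowest member in every group. At week 4 it stood at 1.27, 3.97 and 5.00 FPKM in normal samples and at 3.64, 3.57 and 2.23 FPKM in PBOO samples. Normal replicate 1 was the lowest of the 6 samples, and the log2 fold change was 0.06 (SE 0.50; adjusted p = 0.942) with it and -0.522 (adjusted p = 0.282) without it. At week 5, Pdgfd was at 0.744, 2.25 and 1.03 FPKM in normal samples and at 0.253 and 0.538 FPKM in PBOO samples. Both PBOO samples were lower than each normal sample, but Pdgfd also varied widely among the normal samples. The log2 fold change of -1.46 (SE 0.56; 95% interval -2.86 to -0.06) had an unadjusted p of 0.0435 and did not pass (adjusted p = 0.105). At these low levels it depended on the pseudocount, and with 1 FPKM in place of 0.1 FPKM it was -0.701 (unadjusted p = 0.0666).

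Pdgfra encodes the α receptor, which binds PDGF-A, PDGF-B and PDGF-C chains. Its levels at week 4 were 9.30, 25.6 and 25.9 FPKM in normal and 23.6, 20.2 and 18.1 FPKM in PBOO samples. All samples except normal replicate 1 lay at 18.1 FPKM or above, and this library set the sign of the fitted change, which was 0.16 (SE 0.39; adjusted p = 0.779) with it and -0.326 (adjusted p = 0.222) without it. At week 5, Pdgfra was at 7.49, 8.41 and 5.33 FPKM in normal and at 1.87 and 4.35 FPKM in PBOO samples. Both PBOO samples were below every normal sample, and means were 7.08 ± 1.58 FPKM (SD, n = 3) and 3.11 ± 1.76 FPKM (SD, n = 2). The 2.38-fold lower level (log2 fold change -1.25, SE 0.39, 95% interval -2.23 to -0.28) had an unadjusted p of 0.0206 and did not pass the test (adjusted p = 0.0625). The log2 fold change was -1.84 (adjusted p = 0.0146) without PBOO week 5 replicate 2 and -0.664 (adjusted p = 0.147) without PBOO replicate 1, with the lone PBOO sample assumed to vary like the normal ones.

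Pdgfrb encodes the β receptor, which binds PDGF-B and PDGF-D. At week 4 it was at 12.6, 12.3 and 11.5 FPKM in normal samples and at 17.0, 18 and 18.7 FPKM in PBOO samples. All 3 PBOO samples lay above all normal samples, and the spread within each group was small (means 12.1 ± 0.587 and 17.9 ± 0.870 FPKM, SD, n = 3 each). The difference was 1.47-fold, with a log2 fold change of 0.56 (SE 0.11; 95% interval 0.29 to 0.82) and an unadjusted p of 0.00159. Its adjusted p of 0.0553 missed the threshold, and it passed in 2 of 15 alternative settings, with quantile normalization (adjusted p = 0.048) and without PBOO week 4 replicate 1 (adjusted p = 0.0319). Relative to the median of all genes the Pdgfrb change at week 4 was 0.808, higher than that of 92.8% of genes tested.

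At week 5, Pdgfrb stood at 10.8, 11 and 11.6 FPKM in normal samples and at 7.83 and 12.9 FPKM in PBOO samples. One PBOO sample was lower and the other higher than all normal samples, and the log2 fold change was -0.15 (SE 0.23; 95% interval -0.71 to 0.42; adjusted p = 0.656). The sign rested on single libraries, since the value was 0.21 without PBOO replicate 1 and -0.501 without PBOO replicate 2 (adjusted p = 0.0416).

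Cell type markers moved with several of these results. At week 4, the smooth muscle markers summed to 51000 to 82300 FPKM in PBOO and 25500 to 27500 FPKM in normal samples, with 2 of 8 passing as higher, while 8 pericyte markers summed to 362 to 390 FPKM in PBOO and 310 to 383 FPKM in normal samples, with none passing. Pdgfrb was higher in the same PBOO samples, and the part of these markers in its level was not tested. At week 5, the fibroblast and interstitial cell markers summed to 78.6 and 117 FPKM in PBOO samples and 1050 to 1320 FPKM in normal samples, and all 8 that were tested passed as lower, as did all 8 smooth muscle markers. The pericyte markers summed to 101 and 128 FPKM compared with 324 to 372 FPKM, with 4 of 8 passing as lower. The leukocyte markers summed to 186 and 660 FPKM compared with 28.6 to 74.8 FPKM, with 3 of 7 passing as higher.

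In the PBOO week 5 samples, the PDGF genes stood closer to their normal level than the fibroblast and smooth muscle marker sums did, but not all stood closer than the pericyte sum. The fibroblast marker sum stood at 0.0639 and 0.0952 of its normal week 5 mean, the smooth muscle sum at 0.0688 and 0.0368, and the pericyte sum at 0.292 and 0.371. By the same measure Pdgfd stood at 0.189 and 0.401, Pdgfra at 0.264 and 0.615, Pdgfc at 0.487 and 0.362, and Pdgfrb at 0.704 and 1.16. Pdgfra was at 0.506% to 0.639% of the summed fibroblast marker level in normal week 5 samples and at 2.38% and 3.71% in PBOO samples, and Pdgfrb at 0.815% to 1.10% and at 9.97% and 11%. The part of the cell makeup in the lower PDGF levels was not tested.

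**Figure D3:**
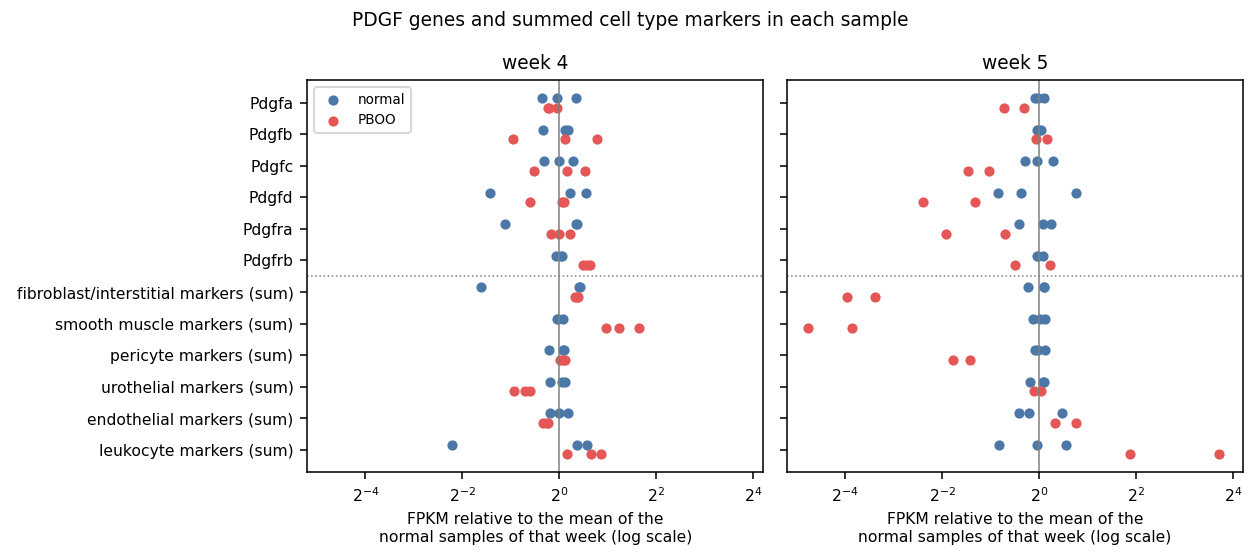
FPKM of each PDGF gene (above the dotted line) and summed FPKM of 6 marker lists (below it) in each sample, divided by the mean of the normal samples of that week, on a log2 axis. In the PBOO week 5 samples (red) the fibroblast and smooth muscle marker sums lie between 0.0368 and 0.0952 of the normal mean, whereas the 6 PDGF genes lie between 0.189 and 1.16.

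The order of the members changed across groups. In normal week 4 samples the means ranked Pdgfa, Pdgfra, Pdgfrb, Pdgfc, Pdgfb and Pdgfd, at 23.7, 20.3, 12.1, 11.6, 7.34 and 3.42 FPKM, and the ranges of neighbours among the first 4 overlapped. The same order held in PBOO week 4 samples, where the ranges of Pdgfrb and Pdgfc did not overlap. In normal week 5 samples the order was Pdgfa, Pdgfrb, Pdgfc, Pdgfb, Pdgfra and Pdgfd, and the ranges of Pdgfrb and Pdgfc overlapped, as did those of Pdgfb and Pdgfra. In PBOO week 5 samples Pdgfrb (10.4 FPKM) and Pdgfa (10.1 FPKM) led with overlapping ranges, followed by Pdgfb, Pdgfc and Pdgfra, of which the last pair overlapped, and by Pdgfd at 0.395 ± 0.201 FPKM (SD, n = 2). The α receptor was thus the second member by mean at week 4 and the fifth at week 5 in both normal and PBOO bladder tissues, a difference between weeks that was not tested because the weeks may have been processed apart.

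Within single samples, the α receptor made up less of the receptor transcripts in PBOO week 5 samples. The Pdgfra to Pdgfrb ratio was 0.694, 0.766 and 0.459 in normal week 5 samples and 0.238 and 0.338 in PBOO samples, so both PBOO values lay below all normal values. The log2 difference was -1.14, with an exact two-sided permutation p of 0.2, which is the smallest that 2 against 3 samples allow (adjusted p = 0.8 over 8 comparisons of 4 ratios). At week 4, the ratio was 0.738, 2.07 and 2.26 in normal samples and 1.39, 1.12 and 0.969 in PBOO samples, with an exact p of 0.5 where 3 against 3 samples cannot go below 0.1. Pdgfrb accordingly supplied 80.8% and 74.7% of summed receptor FPKM in PBOO week 5 samples and 56.6% to 68.6% in normal week 5 samples. The summed receptor level itself was 9.70 and 17.2 FPKM in PBOO samples and 17.0 to 19.4 FPKM in normal samples of week 5.

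Among the ligands, Pdgfb took a larger share in PBOO week 5 samples, where its own level was close to that of normal samples. Its share of summed ligand FPKM was 38.0% and 31.4%, compared with 20.4% to 25.6% in normal week 5 samples. The Pdgfa to Pdgfb ratio was 1.04 and 1.62 in PBOO samples and 2.05, 1.95 and 1.76 in normal samples, without overlap (exact two-sided permutation p = 0.2, adjusted p = 0.8). The Pdgfc to Pdgfd ratio was 18.6 and 6.50 in PBOO and 12.5, 5.25 and 7.62 in normal samples, and these overlapped (exact p = 0.6). Summed ligand levels were 22.0 and 22.7 FPKM in PBOO week 5 samples and 30.2 to 35.4 FPKM in normal samples, with both PBOO samples lower. At week 4 they were 40.6 to 48.8 FPKM in PBOO and 42.8 to 48.6 FPKM in normal samples. The ratio of summed ligands to summed receptors overlapped between groups in both weeks (exact p = 0.6 at week 4 and 0.8 at week 5).

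**Figure D4:**
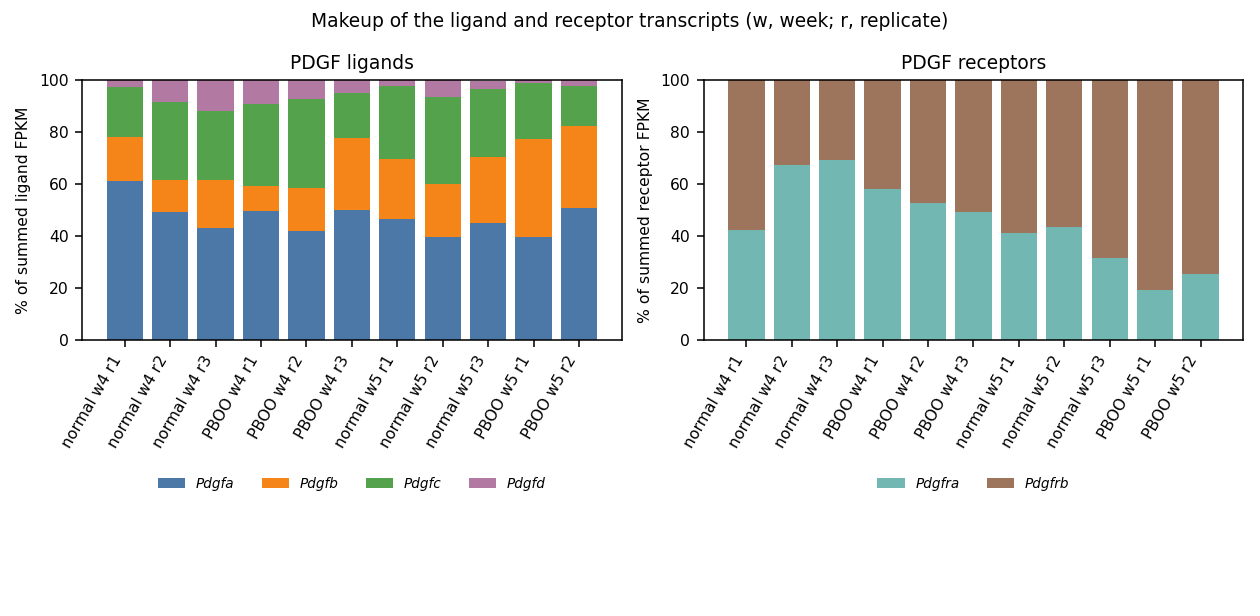
Stacked bars of the share of each ligand gene in summed ligand FPKM (left) and of each receptor gene in summed receptor FPKM (right), in percent, with 1 bar per sample. The Pdgfb share reaches 38.0% and 31.4% and the Pdgfrb share 80.8% and 74.7% in the 2 PBOO week 5 samples.

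Whether the obstruction effect differed between the weeks was tested by an interaction term over all 11 samples and 11296 genes, as the log2 fold change at week 5 minus that at week 4. Lower effects at week 5 passed the test for 2 of 6 members, beside 13.5% of all genes, and by the unadjusted p for 3 members, beside 15.7%. The members' median difference was -0.99 and that of all genes 0.35. For Pdgfc the difference was -1.28 (SE 0.41; 95% interval -2.19 to -0.37; adjusted p = 0.0310), as its effect was near 0 at week 4 and below 0 at week 5. For Pdgfrb it was -0.70 (SE 0.24; 95% interval -1.25 to -0.16; adjusted p = 0.0433), with a higher PBOO level at week 4 and overlapping groups at week 5. The difference of Pdgfra was -1.41 (SE 0.61; unadjusted p = 0.0431; adjusted p = 0.0886) and that of Pdgfd was -1.52 (SE 0.80; adjusted p = 0.152), so neither passed, although Pdgfra did with median-ratio scaling (-1.70, adjusted p = 0.0486) and without PBOO week 5 replicate 2 (-2, adjusted p = 0.0361). Pdgfa (-0.38, adjusted p = 0.272) and Pdgfb (0.04, adjusted p = 0.957) did not pass either.

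Both calls were close to the threshold, and leaving out most single libraries ended them while most estimates moved little. For Pdgfc the estimate lay between -1.57 and -1.05 over all libraries left out. Its call was lost without PBOO week 4 replicate 1 (adjusted p = 0.0514) or 2 (0.0658), without normal week 4 replicate 1 (0.0638) or 3 (0.057), without normal week 5 replicate 1 (0.0569) or 2 (0.0672) and without PBOO week 5 replicate 2 (0.105). The Pdgfrb call was kept only without PBOO week 4 replicate 1 (adjusted p = 0.048) or without PBOO week 5 replicate 2 (0.00206), and without each of the other 9 libraries the adjusted p lay between 0.0612 and 0.126. The estimate of Pdgfrb lay between -0.738 and -0.661 without each library except the PBOO week 5 samples, and was -0.345 without PBOO week 5 replicate 1 and -1.06 without replicate 2. Week and any difference in how the weeks were processed cannot be told apart.

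Genes around the receptors were taken from 5 lists. Of 9 genes of ligand processing, none passed at week 4 and all did at week 5, with 6 higher and 3 lower (median log2 fold change 0.996), beside 15.5% and 14.5% of all genes. Plat, tissue plasminogen activator, which cuts PDGF-C, rose at week 5 (log2 fold change 1.95, adjusted p = 0.00144), with means of 59.4 ± 5.5 FPKM (SD, n = 3) for normal and 231 ± 51.5 FPKM (SD, n = 2) for PBOO tissues. Plau, urokinase, which cuts PDGF-D, rose from 16.8 to 43.8 FPKM (adjusted p = 0.0424), and its receptor Plaur from 16.6 to 37.9 FPKM (adjusted p = 0.0172). Furin, a convertase that cuts PDGF-A and PDGF-B, rose from 50.1 to 145 FPKM (adjusted p = 0.000936), whereas the related convertase Pcsk6 fell from 1.93 to 0.235 FPKM (adjusted p = 0.01). Pcsk6 and Pcsk5 (1.39 and 0.145 FPKM in normal and PBOO samples) averaged under 0.5 FPKM in PBOO samples. Both reached the filter on low values only through normal samples, so they had to differ, and the count of 3 lower genes includes them. Serpine2, an inhibitor of these plasminogen activators, fell from 4.33 to 1.47 FPKM (adjusted p = 0.0174). Transcripts of proteases that cut PDGF-C and PDGF-D were thus higher in the PBOO week 5 samples in which Pdgfc had fallen. At week 4, Pcsk6 (5.48 and 10.9 FPKM in normal and PBOO samples, adjusted p = 0.0553) and Serpine2 (15.4 and 41.6 FPKM, adjusted p = 0.101) had values without overlap but did not pass.

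Of 10 extracellular partners of ligands and receptors, 6 passed as lower at week 5 and none as higher (median -1.40), beside 14.5% and 15.5% of all genes, and none of the 8 tested passed at week 4 (median 0.35). Sparc, a matrix protein that binds PDGF-B chains, fell from 788 to 174 FPKM (log2 fold change -2.22, adjusted p = 0.00266), and A2m, a plasma protein that binds PDGF, from 3.31 to 0.299 FPKM (adjusted p = 0.0489). A2m averaged under 0.5 FPKM in PBOO samples and reached the filter on low values only through normal samples. It therefore had to differ, and the count of 6 lower genes includes it. Itgb3, the β3 integrin subunit, fell from 12.4 to 1.13 FPKM (adjusted p = 0.000521). Cspg4, the NG2 proteoglycan that binds PDGF-AA and is also one of the pericyte markers, fell from 12.4 to 2.01 FPKM (adjusted p = 0.000456). At week 4, Sparc (1090 and 2460 FPKM, adjusted p = 0.113), Lrp1, a coreceptor of the β receptor (28.2 and 41.1 FPKM, adjusted p = 0.101), and Cspg4 (13.7 and 28.8 FPKM, adjusted p = 0.0554) had higher PBOO values without overlap and did not pass.

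Of 34 receptor adaptors and effectors, 4 passed as higher and 1 as lower at week 5, shares below the 15.5% and 14.5% of all genes, and none passed at week 4. Pik3cb, a catalytic subunit of phosphatidylinositol 3-kinase, rose from 1.61 to 4.06 FPKM (adjusted p = 0.0164), and Nras, a small GTPase of the Ras family, from 10.7 to 16.7 FPKM (adjusted p = 0.0209). Median changes of this list were -0.14 at week 4 and 0.06 at week 5.

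Of 21 signal attenuators, 9 passed as higher and 1 as lower at week 5 (median 0.45), beside 15.5% and 14.5% of all genes, and none of the 20 tested passed at week 4 (median -0.20). Socs3, an inhibitor of cytokine receptor signalling, rose from 6.03 to 45.1 FPKM (adjusted p = 0.00543), and Dusp4 and Dusp5, phosphatases of MAP kinases, rose with log2 fold changes of 1.63 (adjusted p = 0.0122) and 0.96 (adjusted p = 0.00488). The lower gene was Ptpn11, at 50.3 and 24.8 FPKM (adjusted p = 0.00629), a phosphatase that binds the receptors and is also known to carry their signal to Ras.

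Of 18 early genes that PDGF and many other stimuli induce, 2 passed as lower at week 4 (median -0.74), namely Junb, an AP-1 subunit (153 and 74.6 FPKM, log2 fold change -1.04, adjusted p = 0.0479), and Zfp36, which destabilises mRNA (138 and 55.5 FPKM, log2 fold change -1.30, adjusted p = 0.0483), beside 0.177% of all genes. Both calls were lost without a filter on low values, with median-ratio scaling, without the trend, and without PBOO week 4 replicate 2 or 3 or normal week 4 replicate 2 or 3, where no gene passed. At week 5, 2 passed as higher (median 0.32), a share below the 15.5% of all genes, namely Klf10, a transcriptional repressor (17.3 and 33.2 FPKM, adjusted p = 0.00305), and Cxcl1, a neutrophil chemokine (0.224 and 11 FPKM, adjusted p = 0.00145). Cxcl1 averaged under 0.5 FPKM in normal samples and reached the filter on low values only through PBOO samples, so it had to differ. These lists were read in the same week 5 samples in which the muscle and fibroblast markers were low and the leukocyte markers high, and the part of those markers in them was not tested.

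**Figure D5:**
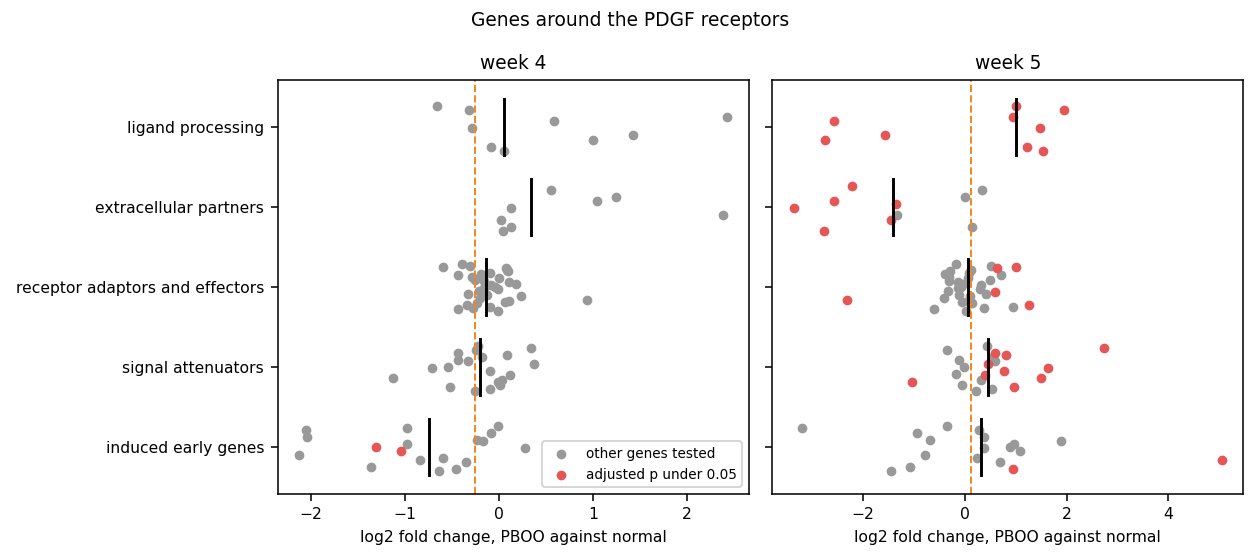
Log2 fold change of PBOO against normal samples (horizontal axis) of each gene in 5 lists around the PDGF receptors, with red points for genes past the test, grey points for the others, black bars for list medians and a dashed line for the median of all genes tested. At week 5 the ligand processing list has a median of 0.996 and the extracellular partners have a median of -1.40.

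Genes whose pattern was most like that of each member were found by Pearson's r of log2(FPKM + 0.1) over the 11 samples after subtracting from each sample, within its week, the mean of that week's PBOO and normal group means, among 9969 to 9970 genes. These values are descriptions, since all points share libraries and the group differences within weeks. Pdgfd and Pdgfra were close to each other (r = 0.903, with Pdgfra at rank 10 among all genes for Pdgfd), and both had Tsc22d3, a glucocorticoid-induced regulator, as their nearest gene (r = 0.952 for Pdgfd and 0.963 for Pdgfra). Papss2, which makes the sulfate donor for proteoglycans, and Sulf1, which removes sulfate from heparan sulfate, came next for Pdgfd (r = 0.935 and 0.925). For Pdgfra they were Fkbp7 and Igsf10 (r = 0.955 and 0.954).

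The other members had neighbours of their own. Pdgfc was nearest to Mpp2, Dcaf6 and Mef2a, the last a muscle transcription factor (r = 0.973, 0.968 and 0.954), and its r was 0.746 with Pdgfd and 0.674 with Pdgfra. Pdgfa was nearest to Orai1, a calcium channel subunit, Odc1, an enzyme of polyamine synthesis, and Aacs (r = 0.938, 0.91 and 0.897). Pdgfb was nearest to Rhoa, a small GTPase, Sbds and PVR (r = 0.943, 0.919 and 0.897), and its r with the other ligands lay between -0.314 and 0.0764. Pdgfrb was nearest to Plekhh2, Prc1, a protein of cell division, and Higd1a (r = 0.96, 0.942 and 0.908). The r of the pair of receptors was 0.346.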

How the data were processed

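Bladder RNA of 11 rat samples was measured by RNA sequencing. The authors prepared TruSeq libraries, trimmed paired reads with SeqPrep and Sickle, mapped them with HISAT2, assembled transcripts with StringTie and deposited 1 table of FPKM values for 18507 genes, with featureCounts named for FPKM. The submitters' processing notes name the mouse build mm10 for these rat samples. The table lists 425 symbols that begin with RGD, a prefix of rat genes, and 15559 of its symbols are in the RefSeq table of rat genes (GRCr8). The annotation and strand setting are not given in the sources used here. The count-based test of the methods could not be run on FPKM, so limma was used instead.

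All 11 columns were assigned from the sample labels, and values were not scaled further. Genes that averaged 0.5 FPKM or more in the samples of a comparison were fitted on log2(FPKM + 0.1) with limma 3.58.1 in R 4.3.3 (lmFit, eBayes with a trend), each week separately, and over all samples for the difference between weeks. The limma fits within each week were checked on simulated data, without low genes and with planted changes larger than those of the members. The test of the difference between weeks and the permutation tests were not checked in this way. Ratios of members were compared by exact permutation tests (scipy 1.17.1), and plots were made in matplotlib 3.10.9. The members and lists were chosen with earlier results of these data known. Named beside the members were, from each pathway list, up to 4 genes per direction and week with the largest change among those with an unadjusted p under 0.05, a mean of at least 1 FPKM and no overlap, of which the text gives a selection, and the 3 genes most like each member. Alternatives were other pseudocounts, filters, scalings, variance models, a replicate block and leaving out each library. Some genes of the lists are not reported here by name.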

Additional observations from a re-analysis of the deposited data

Results flagged for a closer look

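The effect of obstruction on Pdgfc and on Pdgfrb differed between the weeks by a test of the difference itself. For Pdgfc, the log2 fold change at week 5 minus that at week 4 was -1.28 (limma interaction, adjusted p = 0.0310), with both PBOO samples below all normal samples at week 5 and overlapping groups at week 4. For Pdgfrb it was -0.701 (adjusted p = 0.0433), with all 3 PBOO samples above all normal samples at week 4 and overlapping groups at week 5. At week 5 the summed fibroblast, smooth muscle and pericyte markers were lower in the PBOO samples, and their part in these differences was not tested.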

How the results depend on the processing

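Depth is unknown, and with 2 or 3 samples per group a single library often decided a call. Members past the test at week 4 were 0 as reported, 1 with quantile normalization, and 0 to 1 over the fits that leave out 1 library. At week 5 they were 1 as reported, 3 with median-ratio scaling, 3 with quantile normalization (Pdgfa, Pdgfc and Pdgfra in both) and 2 with the replicate block (Pdgfc and Pdgfra), and 0 to 4 when 1 library was left out. Between weeks they were 2 as reported, 1 with a 2-fold minimum, 1 without the trend, 1 with the replicate block (Pdgfc), 3 with median-ratio scaling (Pdgfc, Pdgfra and Pdgfrb) and 0 to 2 when 1 library was left out. Over all alternatives, Pdgfc at week 5 had adjusted p-values between 0.0109 and 0.0636, Pdgfrb at week 4 between 0.0319 and 0.216, and the differences between weeks of Pdgfc between 0.00764 and 0.105 and of Pdgfrb between 0.00206 and 0.126.

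Scaling turned the sign of small log2 fold changes, namely of Pdgfa at week 4 (0.113 with median-ratio scaling and 0.0561 with quantile normalization), of Pdgfb at week 5 (-0.0585 and -0.00192) and of the difference between weeks of Pdgfb (-0.238 and -0.27). Median-ratio scaling moved the median of all genes from -0.253 to -0.0069 at week 4 and from 0.123 to 0.0186 at week 5. Leaving out 1 library turned signs as well. At week 4, values ran from -0.306 to 0.041 for Pdgfa, from -0.39 to 0.467 for Pdgfb, from -0.164 to 0.359 for Pdgfc, from -0.522 to 0.426 for Pdgfd and from -0.326 to 0.409 for Pdgfra. At week 5 they ran from -0.0682 to 0.161 for Pdgfb and from -0.501 to 0.21 for Pdgfrb, and for the difference between weeks of Pdgfb from -0.421 to 0.436. The log2 difference between groups at week 5 ran from -0.884 to -0.245 for the Pdgfa to Pdgfb ratio, from -0.289 to 1.23 for the Pdgfc to Pdgfd ratio and from -0.452 to 0.334 for summed ligands to summed receptors. The cause was not tested.

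Over all genes at week 4, 38 passed as higher and 20 as lower, compared with 468 and 1658 without PBOO replicate 1 and none without PBOO replicate 2 or 3, without normal replicate 2 or 3, without a filter, with median-ratio scaling or without the trend, so the shares of all genes at that week depend on the setting. By the unadjusted p, 652 genes were higher and 2969 lower as reported. The replicate numbers of the labels were not taken to pair the samples, since nothing says that they do. After group means were subtracted, correlations of same-numbered samples were 0.154, -0.0241 and 0.232 at week 4. Those of differently numbered samples ran from -0.210 to 0.0939. At week 5 the same-numbered values were -0.000813 and 0.124, but with 2 PBOO samples each value has its exact opposite. These correlations therefore cannot decide whether samples were paired.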
